A study of Mus musculus with 57 samples.

Results

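The MT2Mm knockout was read at the late 1-cell stage in mouse embryos by RNA sequencing, as 3 knockout samples against 3 control samples. The samples labelled MT2Mm KO came from metaphase II oocytes fertilised in vitro after injection of Cas9 mRNA (100 ng/uL) with guide RNA (150 ng/uL), in a volume of 5 to 10 pL. The control samples are labelled wild type, and the labels do not say whether they were injected. The mice of both groups are of the BDF1 strain, aged 6 to 8 weeks, and the sperm was also BDF1. The same design was sampled at the early 2-cell stage (Early2c, 3 knockout and 3 control samples), and unmanipulated embryos of the same table cover the oocyte to the blastocyst and 14, 17 and 20 hours after fertilisation. A row of the table is a gene or an unannotated locus. A row was counted as expressed at the late 1-cell stage (Late1c) when it reached 1 FPKM (fragments per kilobase, relative to the sample total of mapped fragments) in at least 3 of the 6 Late1c columns, which held for 10977 of 59119 rows. At the edge of this rule, 292 rows reached 1 FPKM in exactly 3 columns and 383 rows in exactly 2 columns.

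MT2Mm is the long terminal repeat of the mouse endogenous retrovirus MERVL. Its many copies in the genome act as promoters and enhancers that are switched on when the embryo starts its own transcription, most strongly in the 2-cell embryo. The late 1-cell embryo still lives mostly on RNA stored by the oocyte: a minor wave of transcription begins in the zygote while stored RNA is being cleared, and the major wave follows at the 2-cell stage. The repeat is not a row of the table, so its loss in the samples labelled MT2Mm KO was not read here. The comparison asks how the transcriptome of the knockout embryo stands just before the stage at which the repeat is most active.

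The knockout and control samples had very similar transcriptomes. Across the 10977 rows, Pearson's correlation of log2(FPKM + 0.5) was 0.979 to 0.990 for the 9 pairs of a knockout and a control sample. It was 0.981 to 0.988 for the 3 knockout pairs and 0.987 to 0.992 for the 3 control pairs. Each knockout sample had 10568 to 10733 of the rows at 1 FPKM or more, and each control sample 10522 to 10757. Small and structural RNAs took 39.7% to 46.8% of the summed FPKM in knockout samples and 43.3% to 46.0% in control samples. FPKM keep no read counts, and sequencing depth is therefore unknown. In such bulk samples, fewer cells of a type and less RNA per cell cannot be told apart. Nothing in the labels says whether the 3 samples of a group came from separate collections of embryos, so p-values measure only the spread between these samples.

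The samples carried the RNA of the egg and early embryo. All 35 genes of a list of maternal genes were expressed, and their summed level was 10572 to 10944 FPKM in knockout samples and 10763 to 11223 FPKM in control samples. Of 21 markers of cumulus and granulosa cells, which surround the oocyte, only Cyp19a1 was expressed. The summed level of that list was 2.76 to 3.63 FPKM in knockout samples and 2.46 to 3.21 FPKM in control samples, and Lum, Hsd3b1 and Tnfaip6 were listed at 0 in all 6 samples. Of 18 markers of sperm and testis, 3 were expressed, namely Odf2, Prm2 and Ldhc. Prm2, which encodes a protamine that packs sperm DNA, averaged 4.09 FPKM in knockout and in control samples.

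Few expressed rows differed much between knockout and control. The median log2 difference, knockout minus control on the log2(FPKM + 0.5) scale, was -0.02, with percentiles 1 and 99 at -0.46 and 0.37. The 95% interval of the difference lay within 1 log2 unit of 0 for 10748 rows (97.9%) and within 0.5 for 9422 rows (85.8%). By limma's moderated test with Benjamini-Hochberg adjustment over all 13180 rows fitted, 8 of the 10977 expressed rows passed an adjusted p of 0.05, which is 0.0729% of them. Of these, 6 were higher (0.0547%) and 2 lower (0.0182%) in knockout embryos. At an unadjusted p under 0.05 there were 986 rows (8.98%), with 523 higher (4.76%) and 463 lower (4.22%). All 3 knockout samples lay above all 3 control samples in 760 rows (6.92%) and below them in 879 rows (8.01%).

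The 8 calls depended on the settings of the test. A pseudocount of 0.1 FPKM gave 12 calls, including all 8, the 6 Late1c columns alone gave 3, and a pseudocount of 1, no filter, a filter on the Late1c mean, scaling by the median of ratios and a variance with no trend each gave 0. Leaving out any 1 of the 12 samples of the fit left between 0 and 2 calls, except that 8 were made without Early2c control replicate 1. The values of the individual samples are therefore given for each called row.

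The 5 protein-coding genes that passed the test were all higher in knockout embryos. Lsm14b encodes an RNA-binding protein of the oocyte that takes part in the repression of stored mRNA, and was the most abundant of them. It had 240.2, 259 and 241 FPKM in the knockout samples and 197, 182 and 192 FPKM in the control samples, a log2 difference of 0.37 ± 0.06 (SE, n = 3 each, limma adjusted p = 0.042). Every knockout sample lay above every control sample. Cdh1, which encodes E-cadherin, the adhesion molecule of the cleavage-stage embryo, had 44.6, 44.1 and 44.7 FPKM in the knockout samples and 36.1, 33.8 and 34.8 FPKM in the control samples. The log2 difference of Cdh1 was 0.35 ± 0.05 (SE, n = 3 each, limma adjusted p = 0.040). The 3 knockout values of Cdh1 lay close together, and the groups did not overlap.

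Tbc1d8, a gene of the TBC domain family that acts on Rab GTPases, had 30.9, 31.9 and 32.5 FPKM in the knockout samples and 25.4, 24.2 and 26.3 FPKM in the control samples, a log2 difference of 0.32 ± 0.05 (SE, n = 3 each, limma adjusted p = 0.048). Tmem201, which encodes a protein of the inner nuclear membrane, had 23.8, 26.1 and 26.1 FPKM in the knockout samples and 18.7, 20.1 and 20.3 FPKM in the control samples, a log2 difference of 0.36 ± 0.06 (SE, n = 3 each, limma adjusted p = 0.042). Lamc1, which encodes the laminin gamma chain of basement membranes, had 11.4, 12.2 and 12.2 FPKM in the knockout samples and 8.13, 8.43 and 9.37 FPKM in the control samples. The log2 difference of Lamc1 was 0.45 ± 0.07 (SE, n = 3 each, limma adjusted p = 0.040). In each of these genes the lowest knockout sample stood above the highest control sample.

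The other 3 calls were short or low rows. Gm4925 reached 1 FPKM in the 3 knockout columns only and Obox4-ps23 in the 3 control columns only, so the rule for expressed rows took them in through the group where they were high, and their calls support nothing about the expressed rows. The other 6 calls were among the 10947 rows that met the rule in another way. Gm4925, an annotated pseudogene on chromosome 10, had 1.75, 1.3 and 1.5 FPKM in the knockout samples and 0, 0.011 and 0.026 FPKM in the control samples (log2 difference 1.97 ± 0.31, SE, limma adjusted p = 0.042). Its level was uneven in embryos without a knockout too, with a mean of 1.23 FPKM at 14 hours and 0.010 FPKM at 17 hours after fertilisation. Gm23245, an annotated small nucleolar RNA on chromosome 5, had 1.21, 1.51 and 2.03 FPKM in the knockout samples and 4.27, 3.75 and 3.19 FPKM in the control samples (log2 difference -1.04 ± 0.14, SE, limma adjusted p = 0.040). Obox4-ps23, a pseudogene of the Obox4 homeobox gene on chromosome 7, had 0.737, 0.643 and 0.391 FPKM in the knockout samples and 1.22, 1.39 and 1.15 FPKM in the control samples (log2 difference -0.70 ± 0.11, SE, limma adjusted p = 0.042). In embryos without a knockout, Obox4-ps23 had a mean of 0 FPKM in the zygote, 22.8 FPKM in the early 2-cell embryo of the stage series and 4.45 FPKM at 20 hours after fertilisation. Rows of such repeated families can share reads with their near-identical copies, and how the authors' counting split them is not stated.

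**Figure D1:**
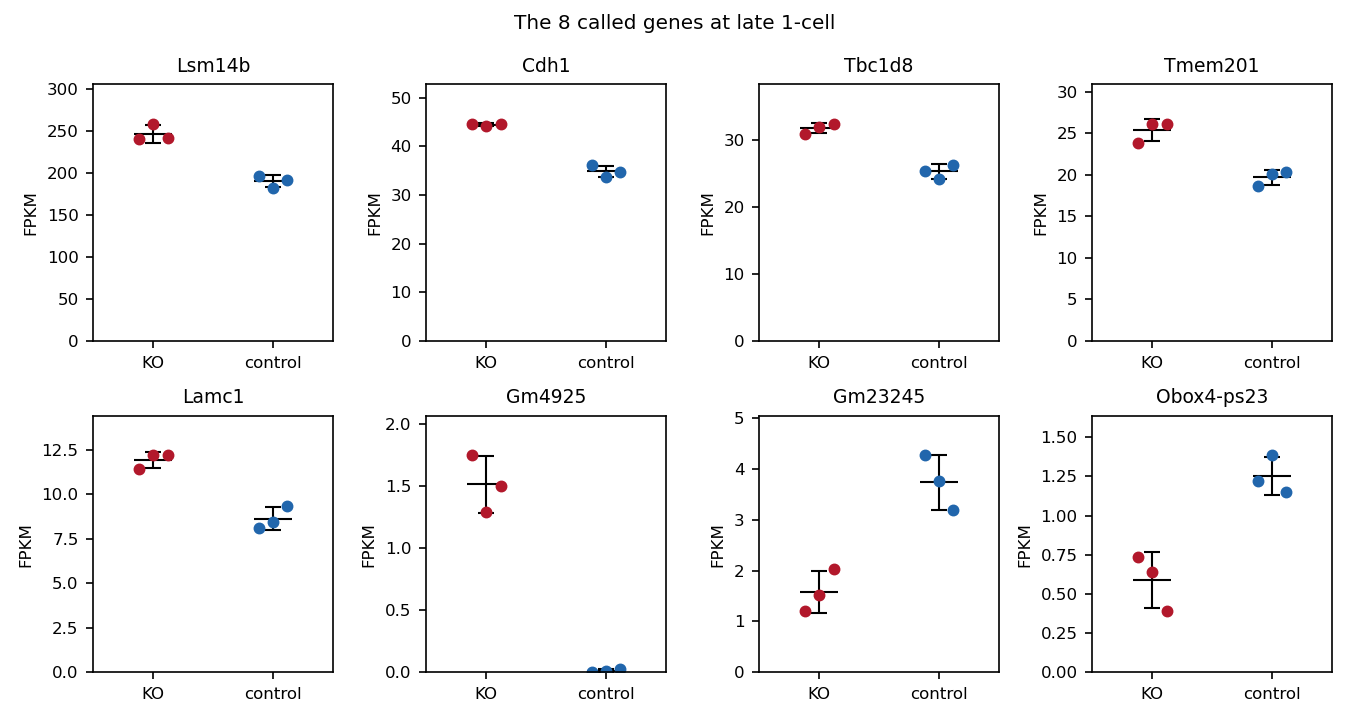
FPKM of the 8 genes that passed the test at the late 1-cell stage, 3 knockout (KO, red) and 3 control (blue) samples each; the bar is the mean and the whiskers 1 SD. The knockout samples of Cdh1 sit between 44.1 and 44.7 FPKM, above all control samples, and those of Gm23245 between 1.21 and 2.03 FPKM, below all control samples.

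As 0.0729% of all expressed rows passed the adjusted test, a count of 0 calls in a gene list is no result about that list, and the lists are described by their medians and intervals. Of the list of 35 maternal genes none passed, and 3 were higher and 2 lower at an unadjusted p under 0.05, where 4.76% of all expressed rows were higher and 4.22% lower. The median log2 difference of the list was -0.04 against -0.02 over all expressed rows. Zbed3, a gene of the subcortical maternal complex, averaged 3969.8 ± 173 FPKM in knockout embryos and 3863 ± 279 FPKM in control embryos (SD, n = 3 each). Dppa3, which protects the maternal genome from demethylation, averaged 639.5 ± 45.9 FPKM in knockout embryos and 670.6 ± 28.8 FPKM in control embryos (SD, n = 3 each). Npm2, the histone chaperone of the egg, had a log2 difference of -0.12 (95% interval -0.28 to 0.04). Of 22 expressed genes of translational repression 1 passed, Lsm14b, and Cpeb1, which controls polyadenylation of stored mRNA, had a log2 difference of 0.31 ± 0.06 (SE, limma adjusted p = 0.15). Zar1l, a paralogue of the oocyte RNA-binding gene Zar1, stood at -0.11 ± 0.05 (SE, limma adjusted p = 0.62).

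None of 31 factors that clear maternal RNA passed the test, where 0.0729% of all expressed rows did, and their median log2 difference was 0.02. Btg4, the adaptor that brings the deadenylase to maternal mRNA, had a log2 difference of -0.08 (95% interval -0.18 to 0.03). Dcp1a, an activator of mRNA decapping that is itself a maternal transcript, had 148, 146 and 146 FPKM in the knockout samples and 114, 125 and 113 FPKM in the control samples. The groups of Dcp1a did not overlap, with a log2 difference of 0.32 ± 0.06 (SE, limma adjusted p = 0.12). Pabpn1l, a poly(A)-binding partner of Btg4, stood at -0.13 ± 0.06 (SE, limma adjusted p = 0.59).

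The list of regulators of genome activation held 31 expressed genes, with a median log2 difference of -0.01 against -0.02 over all expressed rows. None passed the test, where 0.0729% of all expressed rows did. Among the most abundant, Obox2 differed by -0.08 (95% interval -0.26 to 0.11) and Klf17 by -0.01 (95% interval -0.13 to 0.10), both being transcription factors of the oocyte and early embryo. Of 32 genes that silence retroelements limma called 0, and 1 had an unadjusted p under 0.05, where 8.98% of all expressed rows did. This was Trim28, the corepressor of KRAB zinc finger proteins, at 0.20 ± 0.09 (SE, limma adjusted p = 0.58). All 32 had a 95% interval within 0.5 log2 units of 0. Zfp57, which keeps imprints silent, averaged 618 ± 15.5 FPKM in knockout embryos and 638 ± 19.7 FPKM in control embryos (SD, n = 3 each).

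Genes that respond to DNA damage, foreign nucleic acid and protein stress were read next. As background, Cas9 cuts DNA where its guide matches, and a guide to a repeat can match many copies. Of 17 expressed genes of the p53 and damage response, 16 had a 95% interval within 0.5 log2 units of 0. Mdm2, the p53 target that degrades p53, had a log2 difference of 0.12 ± 0.05 (SE, limma adjusted p = 0.57). The median was -0.02 for 41 double-strand break repair genes and -0.04 for 9 interferon and RNA sensing genes, and Cgas, the sensor of cytosolic DNA, differed by 0.02 (95% interval -0.13 to 0.16). It was -0.05 for 22 heat shock and unfolded protein response genes, and none of these 4 lists held a call, where 0.0729% of all expressed rows passed. The summed level of all 31 listed heat shock and unfolded protein response genes was lower in knockout embryos. It was 1507 to 1532 FPKM in knockout samples and 1588 to 1688 FPKM in control samples, with no overlap. Hsp90aa1, a chaperone, stood at -0.22 ± 0.08 and Ern1, the endoplasmic reticulum stress sensor, at 0.38 ± 0.07 (SE, limma adjusted p = 0.46 and 0.12).

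For the general machinery of the cell the medians were read over 46 cell cycle genes, 69 respiratory chain subunits, 72 cytosolic ribosomal proteins, 40 translation initiation factors, 27 RNA polymerase subunits, 33 proteasome subunits and the 15 rows of the mitochondrial genome. Their median log2 differences lay between -0.06 and 0.00, and none of these genes was among the 0.0729% of expressed rows that passed. Bub1b, a mitotic checkpoint kinase and a maternal transcript, had 97.1, 101 and 97.5 FPKM in the knockout samples and 77.9, 59.1 and 72.9 FPKM in the control samples. The knockout samples of Bub1b lay close together above scattered control samples, with a log2 difference of 0.50 ± 0.09 (SE, limma adjusted p = 0.082). Among 23 histone methylation enzymes 6 were higher and 1 lower at an unadjusted p under 0.05, beside 4.76% higher and 4.22% lower over all expressed rows, and none was called by limma. Kdm6b, a demethylase of histone H3 lysine 27, stood at 0.30 ± 0.09 and Kmt2d, a methyltransferase of histone H3 lysine 4, at 0.34 ± 0.14 (SE, limma adjusted p = 0.41 and 0.55).

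**Figure D2:**
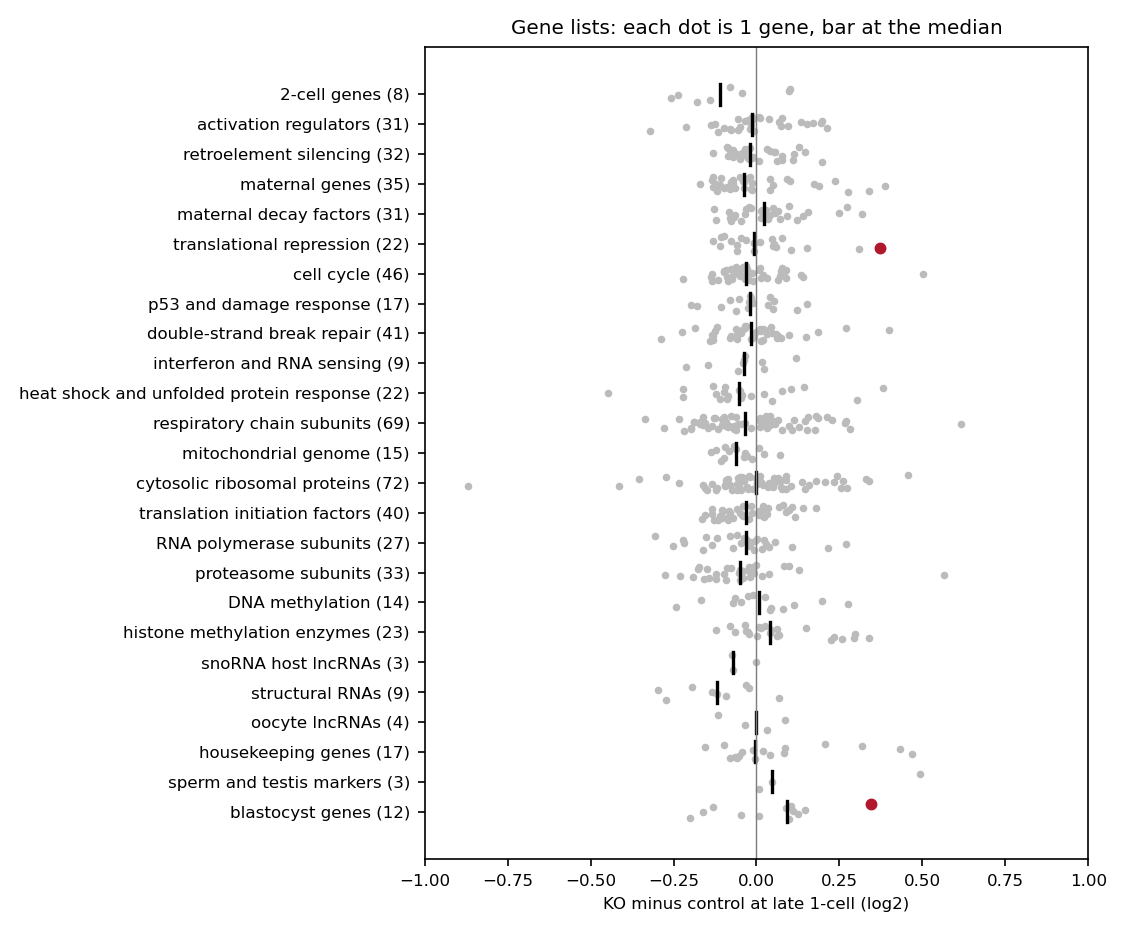
Log2 difference, knockout minus control at the late 1-cell stage, for each expressed gene (dot) of the lists with at least 3 expressed genes; the black bar is the list median, the number of expressed genes is in brackets, and called genes are red. List medians lie between -0.12 and 0.09, and Lsm14b and Cdh1 are the red dots.

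Genes of the 2-cell burst, the programme in which MT2Mm is active, were barely on at the late 1-cell stage. Of 44 genes of this list found in the table, 8 were expressed and 36 were below the rule. None of the 8 passed the test, where 0.0729% of all expressed rows did, and their median log2 difference was -0.11. Obox5, already abundant in the egg, averaged 218 ± 14.2 FPKM in knockout embryos and 230.6 ± 11.5 FPKM in control embryos (SD, n = 3 each). Zscan4c, of the telomere-associated Zscan4 family that marks the 2-cell state, had 1.27, 0.978 and 1.12 FPKM in the knockout samples and 1.36, 1.33 and 1.3 FPKM in the control samples. All knockout values of Zscan4c lay below the control values, with a log2 difference of -0.18 ± 0.06 (SE, limma adjusted p = 0.46). Zscan4d had 1.71, 1.08 and 1.67 FPKM in the knockout samples and 1.46, 1.53 and 2.06 FPKM in the control samples, and its groups overlapped.

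The 36 genes of the burst below the rule had a lower summed level in knockout embryos. Their sum was 6.54, 5.36 and 5.38 FPKM in the knockout samples and 9.10, 10.2 and 9.18 FPKM in the control samples, so the groups did not overlap. This sum was taken after the data were seen. Over all 44 genes of the list the sums overlapped, at 431 to 463 FPKM in knockout samples and 442 to 465 FPKM in control samples. Sums that did not overlap were not particular to the 36 genes. The whole lists of heat shock and of proteasome genes were lower in knockout without overlap, and those of maternal decay factors and blastocyst genes higher. The mean sum of the 36 genes was 5.76 ± 0.68 FPKM in knockout embryos and 9.50 ± 0.63 FPKM in control embryos (SD, n = 3 each), a ratio of 0.606. Without Usp17lc and Usp17ld, the 2 genes of the list that passed the test, the mean sum was 5.19 ± 0.67 FPKM in knockout embryos and 7.47 ± 0.27 FPKM in control embryos (SD, n = 3 each), a ratio of 0.695. The knockout mean was lower in 32 of the 36 genes and higher in 4. All knockout samples lay below all control samples in 16 of them, where 14.6% of all 2203 fitted rows below the rule did so. That share was not even: it held for 137 of the 443 such rows that rose by at least 0.5 log2 units from 14 to 20 hours. Among the other 1760 rows it held for 185. A negative knockout difference was found in 80.1% of the 443 rows and 62.4% of the 1760. At the early 2-cell stage the same 36 genes summed to 829 ± 40.1 FPKM in knockout embryos and 960.2 ± 26.6 FPKM in control embryos (SD, n = 3 each). Several of these genes are near-identical copies, so they are not independent of each other. Duxf3, the mouse Dux gene, encodes a transcription factor that binds and activates MERVL repeats. It had 0.469, 0.548 and 0.577 FPKM in the knockout samples and 0.749, 0.793 and 0.597 FPKM in the control samples, a log2 difference of -0.23 (95% interval -0.53 to 0.07). Gm20767 and Gm4340, annotated genes of the list, stood at -0.46 ± 0.09 and -0.40 ± 0.09 (SE, limma adjusted p = 0.12 and 0.19), with every knockout sample below every control sample.

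All 7 rows below the rule that passed the test were lower in knockout embryos, 0.318% of the 2203. At an unadjusted p under 0.05, 107 of the 2203 rows were lower (4.86%), and 12 of the 36 genes of the burst were among them. Of the 107, 57 were among the 443 rows that rose by at least 0.5 log2 units from 14 to 20 hours. The 7 calls depended on the settings as the 8 did: all 7 were made with a pseudocount of 0.1 FPKM, and none with a pseudocount of 1, no filter, scaling or no trend. With 1 sample left out, between 0 and 1 of the 7 were made, except 6 without Early2c control replicate 1. All of these rows entered the fit through further columns, the Early2c ones included. Usp17lc, a deubiquitinase gene of the multicopy Usp17 family, had 0.354, 0.295 and 0.432 FPKM in the knockout samples and 1.24, 1.92 and 0.941 FPKM in the control samples (log2 difference -1.09 ± 0.15, SE, limma adjusted p = 0.040). Usp17ld had 0.246, 0.096 and 0.279 FPKM in the knockout samples and 0.701, 0.663 and 0.640 FPKM in the control samples (log2 difference -0.73 ± 0.11, SE, limma adjusted p = 0.042). Neither pair of groups overlapped. The related Usp17la had 0.090, 0.095 and 0.203 FPKM in the knockout samples and 0.10, 0.177 and 0.152 FPKM in the control samples, and its groups overlapped. In the stage series Usp17lc averaged 0.137 FPKM in the zygote, 26.6 FPKM in the early 2-cell embryo and 10.8 FPKM in the late 2-cell embryo.

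The promoters of these genes are shown because Usp17lc and Usp17ld passed the test and Usp17la did not. Usp17la lay well below the pseudocount of 0.5 FPKM in knockout and control samples, so the test could hardly have read even its complete loss. Usp17la is therefore not a gene shown to be unchanged. Usp17lc and Usp17ld, of the same multicopy family, may share reads, so their differences may not be independent. The 250 bases before the RefSeq start (build GRCm38.p6) are given 5′ to 3′ on the gene's strand, in lower case with the letters TATAAA in capitals. Whether these letters act as a TATA box was not tested. Usp17lc lies at chr7:103416446-103416695 on the plus strand, Usp17ld at chr7:103252506-103252755 on the minus strand, Usp17la at chr7:104856766-104857015 on the plus strand and Zscan4c at chr7:11005495-11005744 on the plus strand.
Usp17lc: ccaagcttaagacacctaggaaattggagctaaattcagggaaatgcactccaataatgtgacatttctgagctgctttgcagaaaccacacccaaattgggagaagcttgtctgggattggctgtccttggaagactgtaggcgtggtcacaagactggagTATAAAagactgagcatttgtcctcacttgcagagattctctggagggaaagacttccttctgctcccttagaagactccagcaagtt
Usp17ld: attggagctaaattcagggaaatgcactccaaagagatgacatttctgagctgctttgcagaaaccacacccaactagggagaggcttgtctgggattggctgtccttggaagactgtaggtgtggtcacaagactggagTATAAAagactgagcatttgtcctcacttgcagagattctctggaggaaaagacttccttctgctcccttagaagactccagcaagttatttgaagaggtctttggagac
Usp17la: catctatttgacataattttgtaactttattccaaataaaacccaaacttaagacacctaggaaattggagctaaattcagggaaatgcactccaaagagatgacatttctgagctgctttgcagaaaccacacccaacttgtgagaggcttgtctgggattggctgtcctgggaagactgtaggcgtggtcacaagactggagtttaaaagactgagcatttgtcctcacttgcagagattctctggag
Zscan4c: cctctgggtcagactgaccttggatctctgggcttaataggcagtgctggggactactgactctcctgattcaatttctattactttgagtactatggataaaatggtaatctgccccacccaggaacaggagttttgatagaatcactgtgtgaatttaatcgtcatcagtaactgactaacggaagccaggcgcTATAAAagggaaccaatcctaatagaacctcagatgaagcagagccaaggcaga

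The Usp17lc and Usp17ld windows were identical at 219 of 228 bases when shifted against each other by 22 bases with no gaps. TATAAA began 88 bases before the start in Usp17lc, 110 bases before it in Usp17ld and 54 bases before it in Zscan4c, and these letters were not in the Usp17la window. Usp17la was nonetheless identical to Usp17ld at 181 of 186 bases. A link between these letters and the knockout difference was not tested, and Usp17la was too low to serve as a contrast. Searched on both strands (TATAAA or TTTATA), the motif was in 12.4% of all 32851 promoters. Counted by gene, with the motif in any promoter of the gene, it was in 8 of the 22 genes of the 2-cell list with a promoter in the table (36.4%). By the same count it was in 8.04% of the 7061 expressed genes with one. Several genes of the 2-cell list are near-identical copies, so the 8 are not independent of each other.

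The other called rows below the rule included neighbouring pseudogenes on chromosome 10. Gm9046, at chr10:118340847-118343255 on the minus strand (GRCm38), had 0.222, 0.218 and 0.195 FPKM in the knockout samples and 0.472, 0.619 and 0.492 FPKM in the control samples (log2 difference -0.53 ± 0.07, SE, limma adjusted p = 0.040). Its neighbours Gm9048 and Gm9049 stood at -0.47 ± 0.07 and -0.45 ± 0.06 (SE, limma adjusted p = 0.040 for each), and the 3 may share reads. Gm6494, also on chromosome 10, stood at -0.50 ± 0.08 (SE, limma adjusted p = 0.042). Pagr1b, a gene with a close paralogue in Pagr1a, was listed at 0 in all 3 knockout samples and had 1.05, 1.82 and 0.818 FPKM in the control samples. At the early 2-cell stage Pagr1b averaged 1.48 ± 0.52 FPKM in knockout embryos and 0.483 ± 0.247 FPKM in control embryos (SD, n = 3 each), the other direction.

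**Figure D3:**
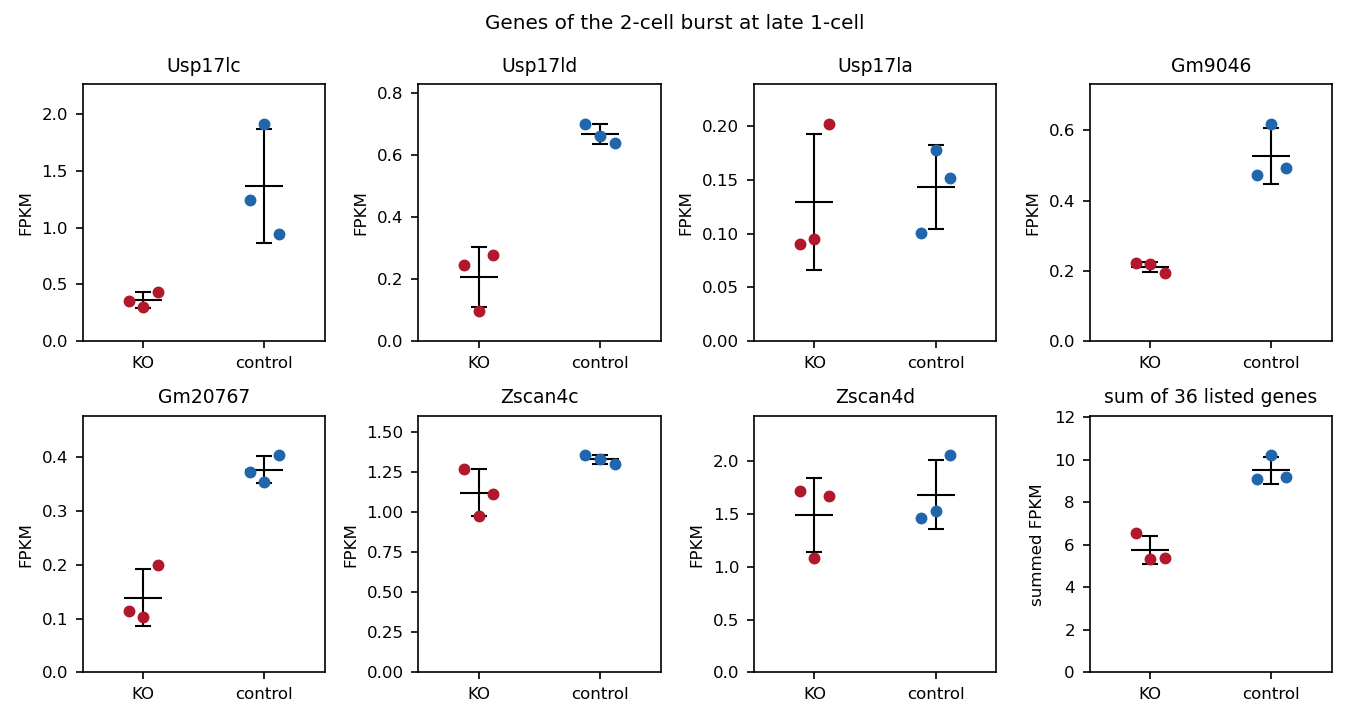
FPKM at the late 1-cell stage of 7 genes that rise at the 2-cell stage and the summed FPKM of the 36 genes of the 2-cell list below the rule, 3 knockout (KO, red) and 3 control (blue) samples each; the bar is the mean and the whiskers 1 SD. The knockout sums sit between 5.36 and 6.54 FPKM and the control sums between 9.10 and 10.2 FPKM, whereas the groups of Usp17la and Zscan4d overlap.

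Most rows whose RNA fell between 14 and 20 hours in unmanipulated embryos had a higher mean in knockout embryos at the late 1-cell stage. The normal change was taken from the unmanipulated embryos as the log2 level at 20 hours minus that at 14 hours after fertilisation, which shares no sample with the knockout comparison. Each hour has 2 columns with merged names for 4 labelled samples, with no statement of which samples went into it. This grouping was made after the data were seen and is given as a description. Among the 168 expressed rows that fell by at least 1 log2 unit over these hours, the median knockout difference was 0.22, and 144 (85.7%) were higher in knockout embryos. That share was 51.1% for the 4822 rows that fell by less than 0.5 and 30.8% for the 4692 rows that rose by up to 0.5. All 3 knockout samples lay above all control samples in 89 of the 168 rows, set against 6.92% of all expressed rows. They lay below them in 3, set against 8.01%. The median difference was 0.08 for the 956 rows that fell by 0.5 to 1, 0.00 for 4822 rows that fell by less, -0.05 for 4692 rows that rose by up to 0.5 and -0.08 for 288 rows that rose by 0.5 to 1. It was -0.02 for the 51 rows that rose by more.

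The shift of the 168 falling rows was present in each sample. The median deviation from the row's mean was 0.11, 0.12 and 0.14 in the knockout samples and -0.08, -0.17 and -0.06 in the control samples, with no overlap. Over all 10977 rows it was 0.01, -0.02 and -0.00 in the knockout samples and 0.03, -0.03 and 0.02 in the control samples, which overlap. The falling rows held 5 of the 8 calls, Cdh1, Lsm14b, Tmem201, Tbc1d8 and Gm4925, where 0.0729% of all expressed rows were called. Gm4925 met the rule only through the 3 knockout columns, so its call supports nothing about the shift. The other calls depended on the settings of the test and are given as a description. The falling rows also held Bub1b, Dcp1a, Ern1, Furin, Igf2bp2, Tet3, Zp1 and Upf1, none of them called. H1foo, Zar1 and Astl, also among the falling rows, stood nearer to 0, at 0.17, 0.05 and -0.02. Of the 168 rows, 24 had a negative difference. Furin, a protease of the secretory route, had 16.2, 17.2 and 16.4 FPKM in the knockout samples and 12.7, 13.4 and 13.5 FPKM in the control samples (log2 difference 0.32 ± 0.05, SE, limma adjusted p = 0.056). Tet3, the enzyme that oxidises 5-methylcytosine in the paternal genome, stood at 0.28 ± 0.08, Igf2bp2, an RNA-binding protein, at 0.27 ± 0.05, Zp1, of the egg coat, at 0.34 ± 0.10 and Upf1, of nonsense-mediated decay, at 0.29 ± 0.08 (SE, limma adjusted p = 0.37, 0.13, 0.39 and 0.39).

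Below the rule, most rows that rose over the same hours had a lower mean in knockout embryos. Of the 443 fitted rows that rose by at least 0.5 log2 units from 14 to 20 hours, 355 (80.1%) had a negative knockout difference, with a median of -0.09. The median deviation of these rows was -0.04, -0.06 and -0.06 in the knockout samples and 0.03, 0.04 and 0.04 in the control samples. Of the other 1760 fitted rows below the rule, 62.4% had a negative difference, with a median of -0.03. Grouped by the change from zygote to early 2-cell embryo in the stage series, the median knockout difference of the expressed rows lay between -0.03 and 0.01 in all 6 groups. It was -0.02 for the 2089 rows that fell by at least 1 log2 unit, -0.03 for the 1916 rows that fell by 0.5 to 1 and 0.01 for the 572 rows that rose by more than 1, with a Spearman's rho across the 10977 rows of 0.07.

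**Figure D4:**
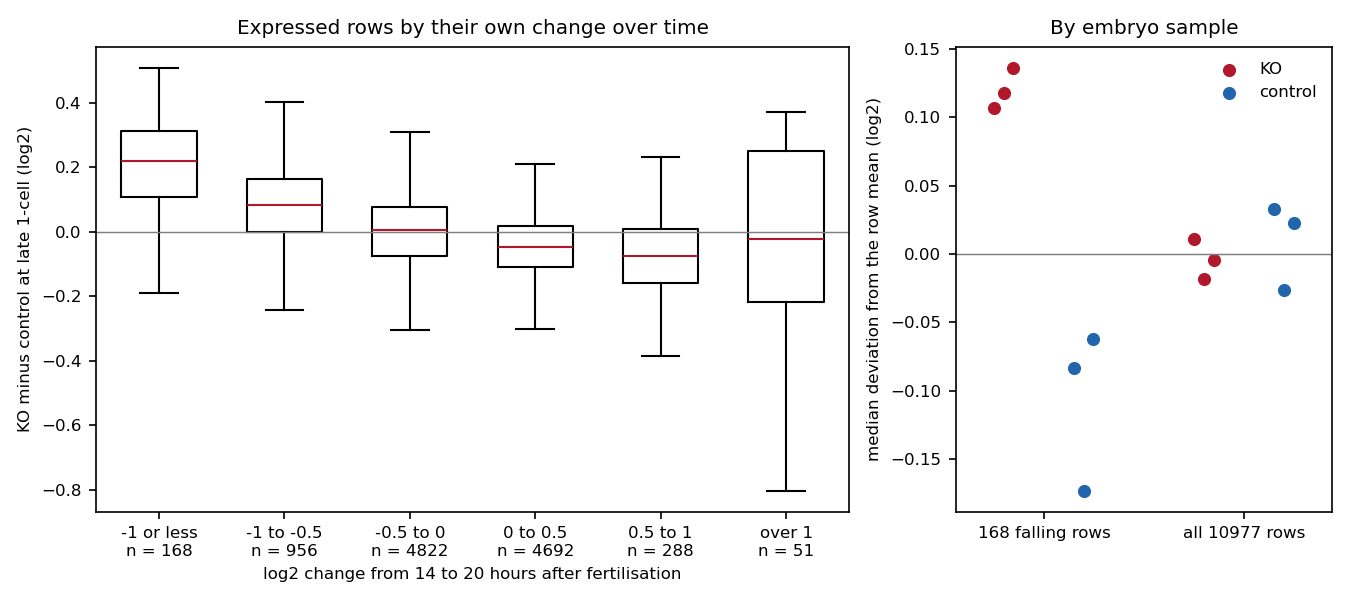
Left, the log2 difference, knockout minus control at the late 1-cell stage, of the 10977 expressed rows grouped by their log2 change from 14 to 20 hours after fertilisation in unmanipulated embryos (line, median; box, quartiles; whiskers, 1.5 times the box; outliers not drawn). Right, each Late1c sample's median deviation from the row mean, knockout (KO, red) left of control (blue): the 168 falling rows separate the groups and the 10977 rows do not.

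Transcript length and base composition moved with the knockout difference as well. Among protein-coding expressed genes, the median difference was -0.04 in the shortest and 0.04 in the longest of 5 equal groups by transcript length, and -0.04 in the lowest and 0.03 in the highest of 5 groups by GC content. Their part in the knockout difference was not tested. Across genes, which are not independent replicates, Spearman's rho with the knockout difference was 0.26 for length and 0.21 for GC content (10091 rows), and -0.33 for the change from 14 to 20 hours (10977 rows). Within each length group the falling genes had a median difference of 0.17 to 0.27, and the remaining genes -0.05 to 0.04. Within each GC group the falling genes had a median of 0.14 to 0.25, and the remaining genes -0.04 to 0.03. By class, the median was -0.01 for 8603 protein-coding genes, -0.07 for 881 unannotated loci, -0.06 for 556 annotated lncRNAs, -0.06 for 583 pseudogenes and -0.07 for 313 small and structural RNAs. None of the unannotated loci and none of the lncRNAs was called by limma, where 0.0729% of all expressed rows were. At an unadjusted p under 0.05, 8 were higher and 59 lower among the loci, and 8 higher and 35 lower among the lncRNAs. Over all expressed rows 4.76% were higher and 4.22% lower.

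The knockout effect was far wider one stage later. Over the same 10977 rows, the SD of the log2 difference was 0.39 at the early 2-cell stage and 0.18 at the late 1-cell stage, and 5276 rows (48.1%) passed limma's adjusted test at the early 2-cell stage against 8 at the late 1-cell stage. The difference between the stages was tested directly, as the Early2c effect minus the Late1c effect. It passed an adjusted p of 0.05 in 3978 rows (36.2%), with 3187 positive and 791 negative. The balance of directions rested on the scaling. As deposited, the median knockout difference over the 10977 rows was 0.16 at the early 2-cell stage and -0.02 at the late 1-cell stage. With samples scaled by the median of ratios these medians were 0.02 and -0.00, and 3906 rows passed, with 2121 positive and 1785 negative. The samples of the stages are separate, and no control is shared between them.

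The 6 rows with the lowest adjusted p for that difference were close to control at the late 1-cell stage and higher in the knockout at the early 2-cell stage. Kpna2, an importin that carries proteins into the nucleus, averaged 245 ± 18.6 FPKM in knockout and 59.3 ± 2.7 FPKM in control embryos at the early 2-cell stage, and 233 ± 16.1 FPKM in knockout and 249.6 ± 19 FPKM in control embryos at the late 1-cell stage (SD, n = 3 each). Zar1l averaged 73.4 ± 3.2 FPKM in knockout and 21.5 ± 1.1 FPKM in control embryos at the early 2-cell stage, and 209.9 ± 1.4 FPKM in knockout and 227 ± 12.9 FPKM in control embryos at the late 1-cell stage (SD, n = 3 each). The other rows were Fam50a, Pak1ip1, Ckb and Fetub, with an Early2c effect minus Late1c effect of 1.99, 1.79, 1.3 and 1.29 (limma adjusted p from 5.08e-07 to 8.53e-07 over the 6 rows). Their own Late1c differences were -0.05, -0.13, 0.04 and -0.08, and none passed the test.

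Values of called genes at the early 2-cell stage are given as a description. These genes were picked by their Late1c difference, which the stage difference subtracts, so its adjusted p is no independent support for a change. Cdh1 was higher in knockout embryos at both, with 18.6 ± 1.1 FPKM in knockout and 11.4 ± 0.4 FPKM in control embryos at the early 2-cell stage (SD, n = 3 each, log2 difference 0.68). Lsm14b had 66.5 ± 2.2 FPKM in knockout and 70.2 ± 4.5 FPKM in control embryos at the early 2-cell stage (SD, n = 3 each), and its effect differed between the stages by -0.45 (limma adjusted p = 0.0011). Obox4-ps23, lower at the late 1-cell stage, had 226 ± 7.0 FPKM in knockout and 167 ± 14.8 FPKM in control embryos at the early 2-cell stage (SD, n = 3 each), a stage difference of 1.13 (limma adjusted p = 0.00019). As Obox4-ps23 met the rule only through the 3 control columns, its stage difference supports no reversal. Zscan4c, which was not called at the late 1-cell stage, had 46.1 ± 0.6 FPKM in knockout and 67.9 ± 0.8 FPKM in control embryos at the early 2-cell stage (SD, n = 3 each). Its stage difference was -0.37 (limma adjusted p = 0.0055).

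**Figure D5:**
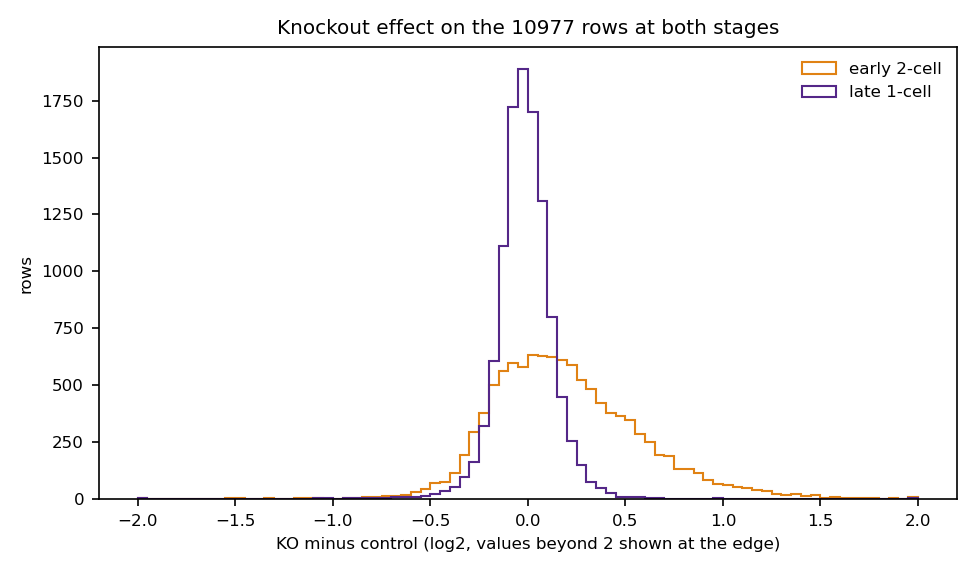
Number of rows by log2 difference, knockout minus control, over the 10977 rows expressed at the late 1-cell stage, at the early 2-cell stage (orange) and at the late 1-cell stage (purple), in steps of 0.05 log2 units. The SD is 0.39 at the early 2-cell stage and 0.18 at the late 1-cell stage.

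Large differences at the late 1-cell stage were few and mostly uncalled. Of the expressed rows, 38 differed by more than 1 log2 unit, 13 higher and 25 lower, and 2 of them passed the test, Gm4925 and Gm23245. Gm29103, an annotated lncRNA named after its values were seen, had 2.94, 8.30 and 4.60 FPKM in the knockout samples and 80.7, 48.5 and 86.6 FPKM in the control samples. The groups of Gm29103 did not overlap, but its spread was wide in the Early2c samples of the same fit (23.2 ± 21.6 FPKM in knockout and 12.5 ± 19.7 FPKM in control embryos, SD, n = 3 each), and limma's adjusted p at the late 1-cell stage was 0.45. Fitted with the 6 Late1c columns alone, Gm29103 passed, with a log2 difference of -3.71 (limma adjusted p = 0.034).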

How the data were processed

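The table holds FPKM values deposited by the authors, for 54446 Ensembl gene rows and 4673 loci without position. Per the submitters' processing notes, HISAT2 2.1.0, StringTie 1.3.4d, Cuffdiff 2.2.1, Cufflinks and cutadapt 1.18 were used, with the build GRCm38. The order and settings are not given, nor is which library kit (TruSeq Stranded Total RNA or SMARTer v2, per the labels' protocols) served which sample, and strand use in counting is not stated. FPKM keep no depth, so no counting interval is given. Gene names, classes and coordinates come from GENCODE M21 (54409 rows found), promoters from RefSeq. Each knockout-experiment column matches 1 sample. Columns from the 4-cell stage onward and at 14, 17 and 20 hours have merged names, 2 for each group of 4 samples, and which samples each holds is not stated. The 9 columns of another experiment were not used.

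Rows at 1 FPKM or more in 3 of the 12 knockout-experiment columns (13180) were fitted on log2(FPKM + 0.5), which understates changes of low rows, with limma 3.58.1 in R 4.3.3 (lmFit and eBayes with trend). The 4 groups shared 1 spread (8 residual degrees of freedom), and p-values were adjusted by Benjamini-Hochberg over all 13180 rows. The fit was tested on simulated data. Summaries used Python 3.11.15, pandas 2.3.3 and Matplotlib 3.10.9. Alternatives were other pseudocounts, filters and scaling, no trend, the 6 Late1c columns alone, a replicate block, and each sample left out. A fit on the expressed rows alone and the grouping by change from 14 to 20 hours were added after seeing the data. So were the sum of the 2-cell genes below the rule and that sum without Usp17lc and Usp17ld. The expressed rows and gene lists were chosen with earlier results of these data known. Genes were named by rule: up to 4 per list, called first and then by level; the 12 largest called differences each way from 5 FPKM upward; the 6 most abundant called rows each way; and the 6 rows with the lowest adjusted p between stages. Further genes were named after their values were seen: the 7 called rows below the rule, Usp17la, Zscan4c, Zscan4d, Duxf3, Gm20767, Gm4340, Cpeb1, Trim28, Igf2bp2, Furin, Tet3, Zp1, Upf1, H1foo, Zar1, Astl and Gm29103.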

Additional observations from a re-analysis of the deposited data

Results flagged for a closer look

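The knockout effect differed between the early 2-cell and the late 1-cell stage in 3978 of the 10977 expressed rows, by limma's test of the Early2c effect minus the Late1c effect with an adjusted p under 0.05. Called rows, within or below the rule, were picked by the Late1c effect that this difference subtracts, so its test is not independent of that choice. Obox4-ps23 also met the rule only through the 3 control columns. All values below are the Early2c effect minus the Late1c effect on the log2 scale. Among called genes it was 0.33 for Cdh1, -0.57 for Lamc1, -0.45 for Lsm14b, -0.24 for Tmem201, -0.31 for Tbc1d8, 0.86 for Gm23245 and 1.13 for Obox4-ps23. For the called rows below the rule it was 0.88 for Usp17lc, 0.70 for Usp17ld, 0.30 for Gm9046, 0.27 for Gm9048, 0.26 for Gm9049, 0.32 for Gm6494 and 2.76 for Pagr1b. Among the other 2-cell and activation genes it was -0.37 for Zscan4c, 0.997 for Duxf3, 0.50 for Klf17 and 0.62 for Obox2. For maternal and RNA-handling genes it was 0.29 for Igf2bp2, -0.61 for Upf1, 0.78 for Npm2, 1.36 for Pabpn1l, 1.86 for Zar1l and 0.31 for Cpeb1. For stress, silencing and chromatin genes it was 0.56 for Cgas, 1.39 for Hsp90aa1, 0.64 for Zfp57 and -0.77 for Kmt2d. It was 1.99 for Fam50a, 2.14 for Kpna2, 1.79 for Pak1ip1, 1.3 for Ckb, 1.29 for Fetub and 5.33 for Gm29103. Groups of 3 samples are too small for the check on outlying samples. With samples scaled by the median of ratios, which lowers the median stage difference of the expressed rows to 0.02 from 0.17 as deposited, the difference no longer passed for Cdh1 (0.16), Cpeb1 (0.15), Igf2bp2 (0.12), Gm9046 (0.11), Gm9048 (0.088), Gm9049 (0.078) and Gm6494 (0.13).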

How the results depend on the processing

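The number of expressed rows called at the late 1-cell stage was the least stable result: 8 as reported, 12 with a pseudocount of 0.1 FPKM, 3 with the 6 Late1c columns alone and 0 with a pseudocount of 1, no filter, a filter on the Late1c mean, median-of-ratios scaling, no trend or the fit on the expressed rows alone. These fits with 0 calls by limma had between 883 and 1075 rows at an unadjusted p under 0.05. Leaving out 1 sample gave between 0 and 8 calls. The cause was not tested. The stage difference passed in 2949 to 3966 rows across the settings and in 3288 to 4239 with 1 sample left out. Of the rows that passed, 80.1% were positive as deposited and 54.3% after median-of-ratios scaling. The median difference of the 168 falling rows was 0.20 to 0.24 across settings and 0.18 to 0.24 with 1 sample left out. The knockout to control ratio of the summed 2-cell genes below the rule was 0.606, 0.695 without Usp17lc and Usp17ld, and 0.565 to 0.630 with 1 sample left out.

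Correlations of deviations between samples with the same replicate number were 0.09, 0.11 and -0.09. With 3 samples in each group, these values cannot settle whether such samples were paired. With a replicate block, 0 rows were called at the late 1-cell stage (1036 at an unadjusted p under 0.05) and 3852 between the stages.

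For single genes, 822 of the recomputed differences kept direction and call, 260 called ones lost the call, 5 gained it and 12 changed sign, all 12 of them small differences that were never called. With 1 sample left out, Usp17la ranged from -0.12 to 0.0097, Zscan4d from -0.22 to 0.017, Cgas from -0.032 to 0.050, Klf17 from -0.043 to 0.021, Fam50a from -0.077 to 0.015 and Prm2 from -0.067 to 0.12, and scaling put Klf17 at 0.0013. FPKM give no depth, which limits what can be said of rows under 1 FPKM.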
